A study of Homo sapiens with 12 samples.

Results

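The 14-3-3 proteins are a family of small phosphoserine- and phosphothreonine-binding adaptors, encoded in human cells by SFN (stratifin, 14-3-3 sigma), YWHAB (beta), YWHAE (epsilon), YWHAG (gamma), YWHAH (eta), YWHAQ (theta) and YWHAZ (zeta). The 7 genes were chosen by name, and all 7 were found among the 38434 named genes listed for all 12 libraries, which include genes without a count. They were selected on the maspin against ctrl comparison within each line, with its values known, so the differences between maspin and ctrl are given for them as a description: no p is printed for a member there, and a call is only counted beside the share of all genes called. The comparison of the lines without maspin was not itself used in that choice and was tested. Its ctrl libraries are arms of the comparisons that were used, so it is not independent of the choice. The gene lists read below were also chosen with earlier results of these data known.

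A 14-3-3 dimer docks onto phosphorylated client proteins and holds them in the cytoplasm, keeps their activity in check or protects them from degradation. Its clients include the CDC25 phosphatases, FOXO factors, BAD and YAP1. SFN stands apart from the other members: it is made mainly in epithelial cells, restrains entry into mitosis after DNA damage, pairs mostly with itself, and is often silenced by methylation in carcinomas, while the YWHA genes are active in almost every cell.

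The lines LK-2 and RERF-LC-AI stem from human lung squamous cell carcinoma (LUSC) and hold little maspin (SERPINB5), a serpin that acts as a tumour suppressor in several epithelia. Both were infected with a lentiviral vector for ZsGreen alone (LK2-ctrl, LC-AI-ctrl) or for maspin with ZsGreen (LK2-maspin, LC-AI-maspin), and blasticidin-resistant clones were pooled, so that all 4 groups carry the vector and ZsGreen. Poly(A) RNA was sequenced from 3 libraries per group to see how re-expressed maspin changes transcription. No source used here says whether the 3 libraries came from separate cultures, and their spread may be technical. Each group is a pool of its own, so maspin and other differences between pools cannot be told apart. What is called the effect of maspin below is the difference between the maspin and ctrl pools of a line.

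Levels are CPM, the counts scaled to a common library size with TMM factors over all 12 libraries, given in the order of replicates 1, 2 and 3. Each LK-2 library held 39802246 to 54941357 counts, and each RERF-LC-AI library 50143577 to 65454432. SERPINB5 averaged 1.83 ± 0.0853 CPM in LK2-ctrl and 46.7 ± 1.29 in LK2-maspin, and 0.221 ± 0.0672 in LC-AI-ctrl and 504 ± 36.8 in LC-AI-maspin (SD, n = 3). Of 7 squamous markers, SOX2 (501 CPM) and DSC3 (61.2 CPM) were high in LK2-ctrl, whereas TP63, KRT5, KRT6A, KRT14 and DSG3 were all under 5 CPM. In LC-AI-ctrl all 7 were under 5 CPM and summed to 4.26 to 4.80 CPM, against 550 to 595 in LK2-ctrl. Of 3 mesenchymal markers, VIM stood at 1800 ± 88.7 CPM (SD, n = 3) in LC-AI-ctrl against 0.593 ± 0.0862 in LK2-ctrl, and ZEB1 at 60.3 against 1.95. COL1A1 went the other way, at 6.37 CPM in LC-AI-ctrl against 15.5 in LK2-ctrl. The squamous keratins were thus near 0 in both lines, although the label is LUSC. Adenocarcinoma markers summed to at most 7.76 CPM and neuroendocrine markers to at most 5.24 in any library, and of 3 leukocyte markers CD68 alone was above 5 CPM, in RERF-LC-AI cells (47.4 in LC-AI-ctrl). Expression of a gene in part of the cells and less RNA in every cell cannot be told apart in these bulk samples.

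SFN lies on chromosome 1 (GRCh38, 26863149 to 26864456, plus strand) as a gene of 1 exon and 1308 bases, of which 744 code. The longer YWHA genes have 2 exons (YWHAG on chromosome 7, YWHAH on 22) or 6 (YWHAB on 20, YWHAE on 17, YWHAQ on 2, YWHAZ on 8) in their MANE Select transcripts. RefSeq promoters (GRCh38.p14) matched 6 of the 7 genes. SFN and YWHAB are shown, since their levels differed between the lines by the same size while the bases before their starts differ in CpG. The 250 bases before each start are printed 5′ to 3′, with every CpG in capitals.
SFN, chr1:26862899-26863148, plus strand: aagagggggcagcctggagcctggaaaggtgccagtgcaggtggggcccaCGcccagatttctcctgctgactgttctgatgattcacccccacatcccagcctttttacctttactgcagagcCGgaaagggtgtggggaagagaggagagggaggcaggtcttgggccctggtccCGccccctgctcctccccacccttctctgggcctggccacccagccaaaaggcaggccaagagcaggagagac
YWHAB, chr20:44885455-44885704, plus strand: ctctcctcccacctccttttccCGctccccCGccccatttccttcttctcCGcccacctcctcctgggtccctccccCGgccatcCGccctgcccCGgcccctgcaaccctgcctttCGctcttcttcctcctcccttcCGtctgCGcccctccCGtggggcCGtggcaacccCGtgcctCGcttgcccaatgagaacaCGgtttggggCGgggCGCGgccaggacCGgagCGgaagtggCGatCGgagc
The SFN stretch holds 3 CpG, fewer than any of the other 5 matched members, which hold 21 (YWHAB) to 34 (YWHAH). Over 35116 promoters of this length the median was 11, and 22.9% held fewer CpG than SFN. The GC box GGGCGG, read on both strands, occurs in all 6 and in 42.6% of all promoters. CCAAT was found before YWHAB and YWHAQ (32.0% of all promoters) and TATAAA before YWHAH (10.7%). These matches describe letters in the reference, and neither methylation nor binding was measured.

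No stretch of 50 bases is shared between the MANE Select transcripts of the 7 members. SFN, YWHAB and YWHAG share no such stretch with any other annotated transcript. Shared stretches made up 2.14% of the start positions in YWHAQ, 3.35% in YWHAH, 5.99% in YWHAE and 11.8% in YWHAZ, whose partners among 141 other genes include its processed pseudogenes, and reads there could be split. The pseudogenes YWHAEP1 and YWHAEP7 took 6 to 25 counts per library, against at least 33609 for YWHAE. The stretches of YWHAH are shared with a readthrough gene on the same strand that overlaps it, and reads there could belong to either. No source used here says whether counting used the strand, and C22orf24 (YWHAH-AS1), which overlaps the span of YWHAH on the opposite strand, took 7 to 35 counts against at least 4753 for YWHAH.

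SFN differed between maspin and ctrl in opposite directions in the 2 lines. In LK-2 cells it stood at 36.0, 37.9 and 35.1 CPM in ctrl and at 46.3, 53.4 and 50.3 CPM in maspin libraries. In RERF-LC-AI cells it stood at 89.1, 88.4 and 82.1 CPM in ctrl and at 64.1, 69.2 and 66.5 CPM in maspin libraries. All 3 LK2-maspin libraries were above all 3 LK2-ctrl libraries, and all 3 LC-AI-maspin libraries were below all 3 LC-AI-ctrl libraries. The raw counts behind these levels ran from 1698 to 4506. The log2 fold change of the edgeR fit was 0.46 (SE 0.07) in LK-2 cells, a change of 37.4%, and -0.34 (SE 0.05) in RERF-LC-AI cells, a change of -21.1%. Each fit used TMM factors over the libraries of its line only, so its changes differ slightly from those of the CPM printed. The effect in LK-2 minus that in RERF-LC-AI cells was 0.80 (SE 0.10) on the log2 scale, and the gap between the lines narrowed from -1.24 in ctrl to -0.43 in maspin libraries.

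**Figure D1:**
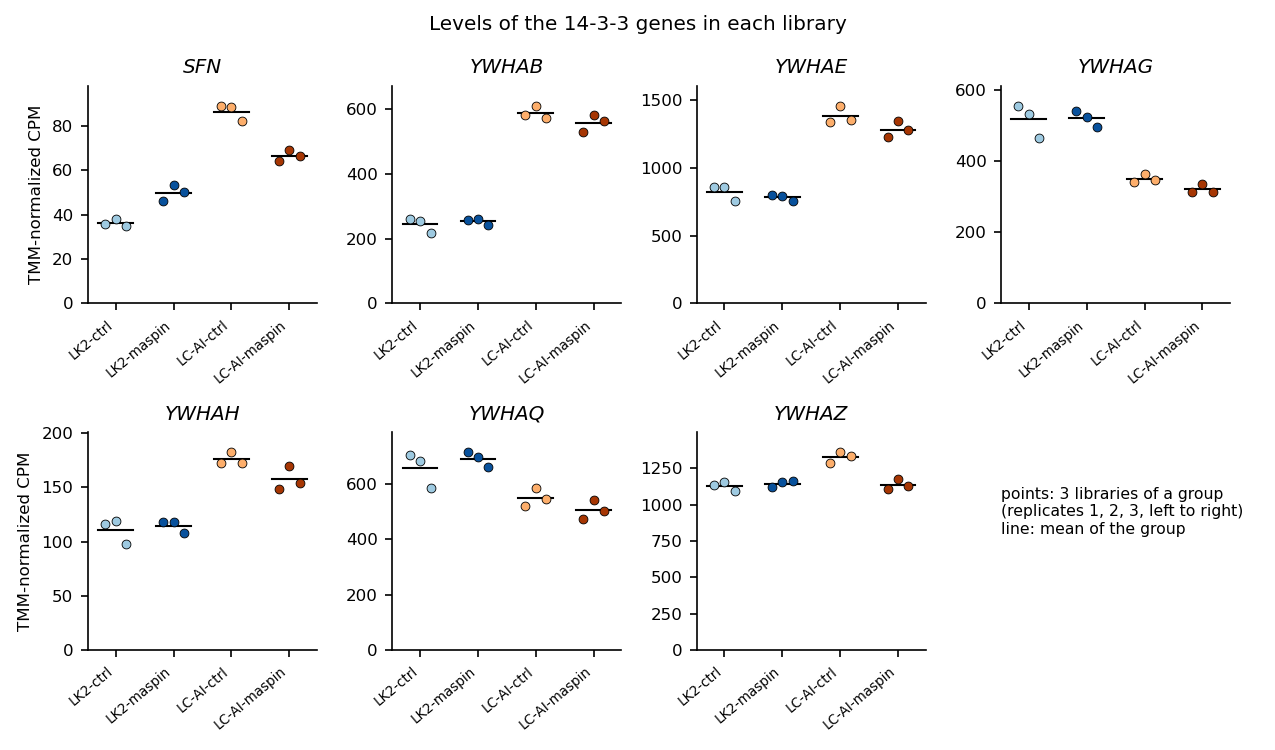
TMM-normalized CPM (y axis, from 0) of each 14-3-3 gene in the 12 libraries, as 3 points per group with a line at the mean. SFN spans 35.1 to 37.9 CPM in LK2-ctrl and 46.3 to 53.4 in LK2-maspin, and 82.1 to 89.1 in LC-AI-ctrl and 64.1 to 69.2 in LC-AI-maspin, while in LK-2 cells the points of the other 6 genes overlap between ctrl and maspin.

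The 6 YWHA genes did not separate maspin from ctrl in LK-2 cells. Their log2 fold changes lay between -0.07 (YWHAE, SE 0.06) and 0.07 (YWHAQ, SE 0.07), and the libraries of the groups overlapped for each of the 6. YWHAE, the epsilon form, stood at 861, 858 and 757 CPM in LK2-ctrl and at 801, 795 and 759 CPM in LK2-maspin. LK2-ctrl replicate 3 was the lowest ctrl library for all 6 YWHA genes and for SFN. Without it the differences of YWHAB, YWHAG, YWHAH, YWHAQ and YWHAZ turned to -0.02, -0.06, -0.03, -0.0040 and -0.0013. That of YWHAE was -0.13 and that of SFN 0.44. The signs of YWHAB, YWHAH, YWHAQ and YWHAZ thus rest on that library. YWHAG, at 0.0066 in the main fit, was also below 0 in other settings. It was -0.02 without LK2-maspin replicate 1 and -0.0024 with at least 10 counts in every library. Of the 7 genes, 1 (SFN) was called (an adjusted p under 0.05 in edgeR's quasi-likelihood test) as higher and 0 as lower, where 0.373% of the 26270 genes tested were called higher, 0.16% lower and 0.533% in either direction. SFN was also the 1 member whose groups did not overlap, as for 6.46% of genes in the higher direction. These values chose the members and nothing is read from them. The median over the 7 was 0.05, against -0.0010 over all genes tested.

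In RERF-LC-AI cells all 7 differences were below 0, with a median of -0.09 against 0.01 over all genes tested. YWHAZ, the zeta form, which is often raised in carcinomas, stood at 1288, 1362 and 1333 CPM in ctrl and at 1109, 1175 and 1131 CPM in maspin libraries, a log2 fold change of -0.19 (SE 0.04). The maspin libraries were all below the ctrl libraries. YWHAH, the eta form, stood at 172, 182 and 172 CPM in ctrl and at 149, 170 and 154 CPM in maspin libraries (-0.12, SE 0.05), and YWHAG, the gamma form, at 341, 364 and 347 against 314, 335 and 315 CPM (-0.09, SE 0.04). Neither overlapped between groups, with gaps of a few CPM. YWHAB (-0.04), YWHAE (-0.07) and YWHAQ (-0.09) overlapped. Thus 4 of the 7 did not overlap and were lower, as did 15.5% of all genes tested, and 2 of the 7 (SFN and YWHAZ) were called lower and 0 higher, where 6.53% of the 25197 genes tested were called lower, 4.01% higher and 10.5% in either direction. Nothing is read from these counts either. All 7 stayed below 0 with RLE factors, upper-quartile factors or library size alone, and without any 1 library.

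**Figure D2:**
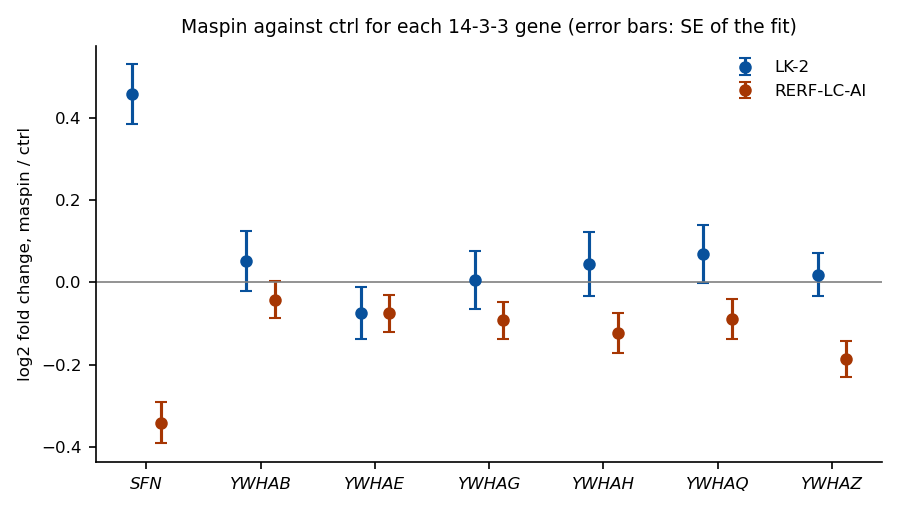
Difference of maspin from ctrl as a log2 fold change (y axis) for each 14-3-3 gene in LK-2 (blue) and RERF-LC-AI cells (brown), with the SE of the fit as error bars. SFN lies at 0.46 and -0.34, the YWHA genes between -0.07 and 0.07 in LK-2 and between -0.19 and -0.04 in RERF-LC-AI cells.

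Per kilobase of transcript, SFN was the lowest of the 7 in every group, and YWHAE was the highest. In LK2-ctrl YWHAE reached 402 ± 28.8 CPM per kb, followed by YWHAQ (299 ± 28.3), YWHAZ (225 ± 6.80), YWHAG (140.0 ± 12.6), YWHAB (80.8 ± 8.08), YWHAH (63.4 ± 6.41) and SFN (27.8 ± 1.116; SD, n = 3). No neighbours in this order overlapped, and the order was the same in LK2-maspin, where YWHAE stood at 382 ± 11.0 and SFN at 38.2 ± 2.70. In LC-AI-ctrl the order was YWHAE (675 ± 31.4), YWHAZ (265 ± 7.35), YWHAQ (250.3 ± 14.99), YWHAB (195 ± 6.40), YWHAH (100.4 ± 3.24), YWHAG (94.7 ± 3.28) and SFN (66.1 ± 2.96), with an overlap of YWHAZ and YWHAQ. In LC-AI-maspin YWHAE stood at 625 ± 28.5 and SFN at 50.9 ± 1.96, while YWHAQ and YWHAZ (230 and 227 on average) overlapped, as did YWHAH and YWHAG (90.0 and 86.7). The order at the top depends on the length used. Per kilobase of coding sequence YWHAZ was the highest in LK2-ctrl (1537 against 1079 for YWHAE) and both were alike in LC-AI-ctrl (1806 and 1809), while SFN remained the lowest at 48.8 and 116.

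The lines without maspin differed in each of the 7 genes. SFN was lower in LK2-ctrl than in LC-AI-ctrl by edgeR's quasi-likelihood test with Benjamini-Hochberg adjustment (log2 fold change -1.24, SE 0.07, adjusted p = 8.9e-10), and so were YWHAB (-1.25, SE 0.08, adjusted p = 2.0e-09), the beta form, and YWHAE (-0.73, SE 0.07, adjusted p = 2.4e-07). YWHAB stood at 261, 255 and 216 CPM in LK2-ctrl and at 581, 609 and 572 CPM in LC-AI-ctrl, so that its groups lay more than 2-fold apart, as those of SFN did. YWHAH was lower as well (-0.65, SE 0.08, adjusted p = 3.8e-06), and YWHAZ by less (-0.22, SE 0.06, adjusted p = 0.0040). YWHAG ran the other way, with 556, 533 and 466 CPM in LK2-ctrl against 341, 364 and 347 in LC-AI-ctrl (0.58, SE 0.07, adjusted p = 6.6e-06), and YWHAQ, the theta form known from T cells, was slightly higher in LK2-ctrl (0.27, SE 0.08, adjusted p = 0.0069). In all, 2 of the 7 were called higher and 5 lower, where 32.1% of 26179 genes were called higher and 31.6% lower. That split of 8407 higher and 8283 lower genes moved to 10778 and 6820 with library size only and to 10768 and 6851 with upper-quartile factors. The median over the 7 was -0.65, against 0.10 over all genes. Upper-quartile factors and library size alone moved the median gene by 0.21 and 0.22, and under them YWHAZ was no longer called (-0.0067 and -0.0032, adjusted p = 0.908 and 0.953), nor was it between the maspin libraries of the 2 lines (-0.0057, adjusted p = 0.945). The other 6 kept direction and call under every alternative. Line, culture medium, count table and SAMtools version cannot be told apart here. The ctrl libraries are also arms of the comparisons that chose the members, and for SFN the gap between the maspin libraries was -0.43.

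**Figure D3:**
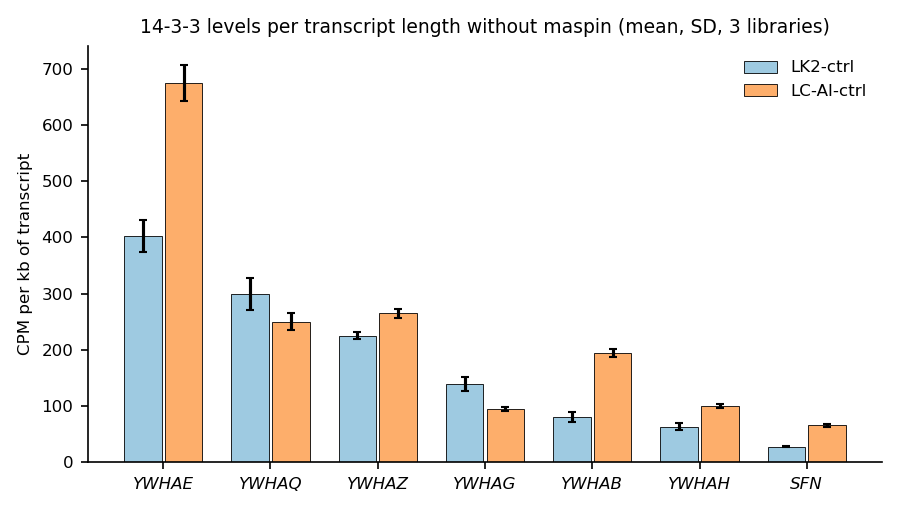
CPM per kilobase of MANE Select transcript (y axis, from 0) of the 14-3-3 genes in LK2-ctrl and LC-AI-ctrl, as the mean of 3 libraries with the SD. YWHAE is the tallest pair (402 and 675) and SFN the shortest (27.8 and 66.1), and YWHAQ and YWHAG are taller in LK2-ctrl.

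Summed over the 7 genes, the level was 1296, 1286 and 1134 CPM per kb in LK2-ctrl and 1598, 1721 and 1618 in LC-AI-ctrl. It was 1273, 1271 and 1217 in LK2-maspin and 1426, 1568 and 1487 in LC-AI-maspin. The sum was lower in all 3 LK2-ctrl than in all 3 LC-AI-ctrl libraries (exact permutation test, two-sided, p = 0.1, the smallest that 3 against 3 allows). SFN made up 2.12, 2.25 and 2.36% of the sum in LK2-ctrl and 4.26, 3.93 and 3.88% in LC-AI-ctrl, a difference of -1.78 percentage points without overlap (exact permutation test, two-sided, p = 0.1). In maspin libraries the SFN share was 2.78, 3.21 and 3.1605% in LK-2 and 3.44, 3.38 and 3.42% in RERF-LC-AI cells, values that chose the members and are not tested. The make-up of the rest differed between the lines far more than between maspin and ctrl. YWHAE held 32.5 ± 0.0937% in LK2-ctrl and 41.0 ± 0.272% in LC-AI-ctrl, YWHAQ 24.1 ± 0.561 and 15.2 ± 0.340%, YWHAG 11.3 ± 0.253 and 5.75 ± 0.0355%, and YWHAB 6.51 ± 0.184 and 11.8 ± 0.190% (SD, n = 3). Within a line, the mean share of YWHAE moved from 32.5 to 30.5% in LK-2 and from 41.0 to 41.8% in RERF-LC-AI cells. SFN thus added only a few percent to the pool of 14-3-3 mRNA in any library.

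**Figure D4:**
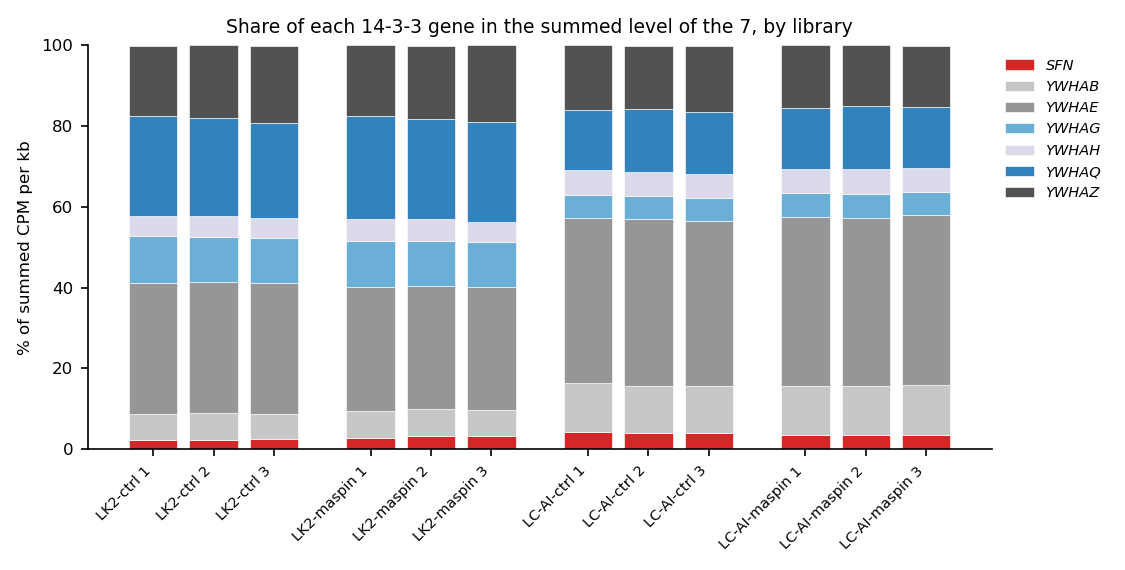
Share of each 14-3-3 gene (y axis, percent of the summed CPM per kb) in each of the 12 libraries. The red SFN segment at the bottom takes 2.12 to 2.36% in LK2-ctrl and 3.88 to 4.26% in LC-AI-ctrl, and the blue YWHAG and YWHAQ segments are larger in LK-2 libraries.

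Genes that regulate SFN were set beside it as a list of 8, and the list was called in neither direction in LK-2 cells. By edgeR's quasi-likelihood test 0 of the 8 passed there, with 0 at an unadjusted p under 0.05 and 0 by DESeq2, the likelihood ratio test or a fit with the replicate number as a block. In RERF-LC-AI cells TRIM25, an E3 ligase that marks the SFN protein for degradation, rose by 0.17 (SE 0.05, adjusted p = 0.0195), and the other 7 were not called. This call was lost without LC-AI-ctrl replicate 2 or 3 or LC-AI-maspin replicate 2 (adjusted p = 0.0521, 0.121 and 0.105) and in 1 fit of all 12 libraries (adjusted p = 0.347). DESeq2 called 2 of the 8 there (TRIM25 and DNMT3A), and the replicate block 3 (also DNMT1). DNMT1, which maintains DNA methylation, stood at 425 CPM in LC-AI-ctrl and 382 in LC-AI-maspin, and DNMT3A, a de novo methyltransferase, at 25.8 and 22.1. Between the lines without maspin 5 of the 8 were higher in LK2-ctrl and 2 lower, where 32.1% and 31.6% of all genes were. DNMT3A stood at 101 CPM in LK2-ctrl against 25.8 in LC-AI-ctrl (log2 fold change 1.99, adjusted p = 2.5e-12). TP73 was higher by more, at 11.4 against 2.34 CPM (2.30, adjusted p = 4.1e-09). TP63, at 1.19 against 0.645 CPM, was higher as well (0.89, adjusted p = 0.041), as were DNMT3B (0.56) and TRIM25 (0.37). BRCA1 was not called (0.21). COP1, another E3 ligase for SFN (-0.68), and DNMT1 (-0.64) were lower in LK2-ctrl.

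Genes whose proteins bind 14-3-3 were set out as 48 clients in 6 groups by role. In LK-2 cells 0 of the 48 passed the quasi-likelihood test, with 4 at an unadjusted p under 0.05, 0 by DESeq2 or the likelihood ratio test and 3 with the replicate block. Their median difference was 0.03, against -0.0010 over all genes. In RERF-LC-AI cells 4 clients were called higher, 11 lower and 33 not, with a median of -0.06 against 0.01, and DESeq2 called 18 and the replicate block 22. Beside the background, 14 of the 43 clients with a mean of at least 10 CPM were called, where 21.3% of all genes at that level were. The lists were chosen with earlier results of these data known, so their counts and adjusted p values are not independent of that choice.

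Of 10 clients in the AKT, FOXO and mTOR group 3 were lower in RERF-LC-AI cells and 0 higher, where 6.53% and 4.01% of all genes were. Among the 8 with a mean of at least 10 CPM, 2 were called, where 21.3% of all genes at that level were. FOXO1, a transcription factor that 14-3-3 keeps out of the nucleus, fell from 7.42 ± 0.871 to 4.33 ± 0.466 CPM (SD, n = 3; -0.74, SE 0.12, adjusted p = 1.1e-04), and IRS1, the insulin receptor adaptor, from 63.8 ± 2.63 to 40.2 ± 2.72 (-0.63, SE 0.06, adjusted p = 4.0e-09). BAD, a promoter of apoptosis held in check by 14-3-3, was lower by less (-0.21, adjusted p = 0.0166). The other 7 were not called, with FOXO3 at 0.15, IRS2 at 0.15 and RPTOR at 0.11, and the median of the group was 0.06.

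Of 11 clients in cytoskeleton and polarity 5 were lower and 1 higher, against the same 6.53% and 4.01% of all genes, with a median of -0.13. All 11 had a mean of at least 10 CPM, and 6 were called, where 21.3% of all genes at that level were. KRT18, the simple-epithelium keratin whose filaments bind 14-3-3, fell from 606 ± 18.1 to 441 ± 17.3 CPM (-0.42, SE 0.05, adjusted p = 1.1e-07). The small GTPase RND3 (-0.31), the kinesin KIF1C (-0.23), the cofilin phosphatase SSH1 (-0.21) and the polarity kinase MARK2 (-0.18) were lower too, and ARHGEF2, a guanine nucleotide exchange factor bound to microtubules, was higher (0.41, SE 0.07, adjusted p = 7.1e-05). Among the rest, the CREB coactivator CRTC1 rose by 0.29, while YAP1, the Hippo pathway coactivator, fell from 235 ± 3.10 to 196 ± 1.63 (-0.23, SE 0.04, adjusted p = 6.9e-04). The tyrosine kinase ABL1 and the ubiquitin ligase CBL were lower as well (-0.26 each). WEE1, which holds back mitosis, and MDM4, a partner of the ubiquitin ligase MDM2, were higher by 0.18 and 0.21, and the libraries of WEE1 overlapped. The phosphatases CDC25A, CDC25B and CDC25C, which are listed as 14-3-3 clients, were called in neither line by the quasi-likelihood test. They stood at -0.11, -0.13 and -0.07 in RERF-LC-AI cells. There CDC25B was called by DESeq2 (adjusted p = 0.017), with the replicate block (adjusted p = 0.00293), with at least 10 counts in every library (adjusted p = 0.037) and without LC-AI-maspin replicate 2 (adjusted p = 0.0238), and CDC25A without LC-AI-ctrl replicate 1 (adjusted p = 0.0345).

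Of the 15 clients called, 6 lost the call when 1 library was left out, and the same 6 in 1 fit of all 12 libraries (adjusted p from 0.0665 to 0.231). BAD and MARK2 also lost it with library size only. The call of WEE1 was lost without LC-AI-ctrl replicate 3 or LC-AI-maspin replicate 2 or 3 (adjusted p from 0.0768 to 0.139), that of MDM4 without LC-AI-ctrl replicate 3 or LC-AI-maspin replicate 1 or 3 (0.0820 to 0.146), and that of BAD without LC-AI-ctrl replicate 1 or 3 or LC-AI-maspin replicate 1 (0.0648 to 0.146). That of CRTC1 was lost without replicate 2 of either group (0.0628 and 0.0824), that of SSH1 without LC-AI-ctrl replicate 3 (0.0514), and that of MARK2 without LC-AI-ctrl replicate 2 or 3 or LC-AI-maspin replicate 2 or 3 (0.0708 to 0.155). The maspin against ctrl difference was unlike in the lines for 4 of the 15 by the interaction term of edgeR's quasi-likelihood test over all 12 libraries. That test measures the spread of libraries within a pool, not between pools. All 15 were picked on 1 arm of that term, and of all genes called in RERF-LC-AI cells 14.9% passed it, against 1.76% of 28123 genes tested. The LK-2 minus RERF-LC-AI difference was 1.03 for IRS1 (adjusted p = 0.0011), 0.90 for FOXO1 (adjusted p = 0.0047), 0.64 for KRT18 (adjusted p = 6.7e-05) and 0.33 for YAP1 (adjusted p = 0.0195).

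**Figure D5:**
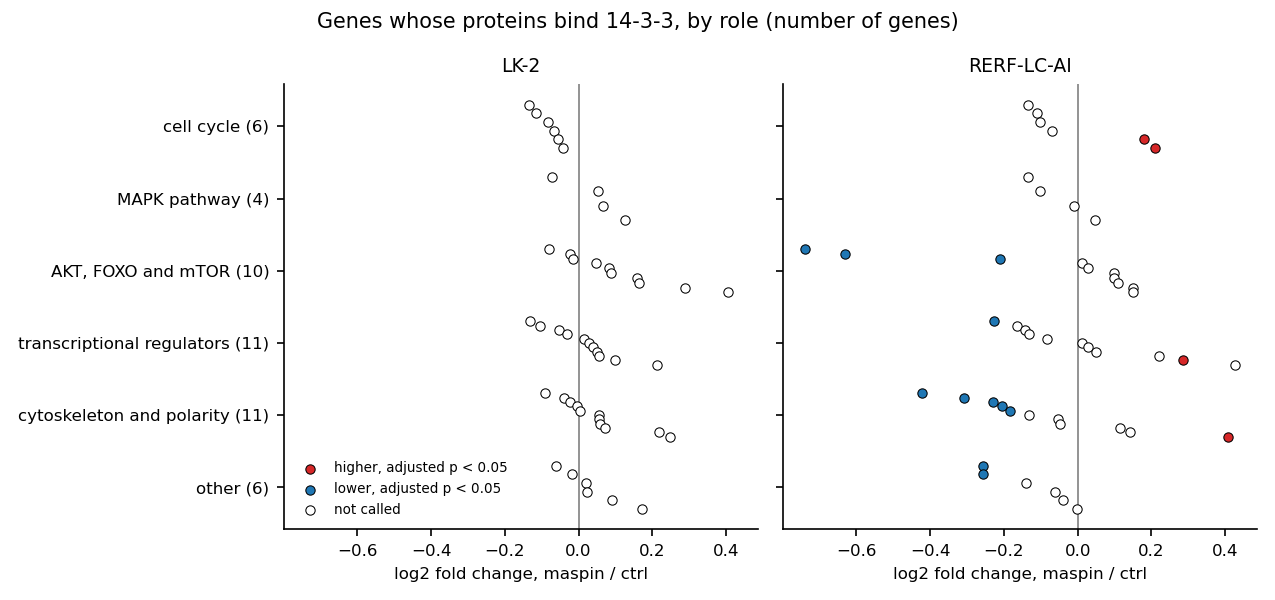
Difference of maspin from ctrl as a log2 fold change (x axis) for each of 48 genes whose proteins bind 14-3-3, in 6 groups by role, in LK-2 (left) and RERF-LC-AI cells (right). Open points did not pass an adjusted p of 0.05: all 48 are open in LK-2 cells, and in RERF-LC-AI cells 4 red points are higher and 11 blue points lower, with FOXO1 (-0.74) and IRS1 (-0.63) at the far left.

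SFN is best known from stratified epithelium, and a list of 25 genes of that tissue was read beside it. The keratins KRT14, KRT16 and KRT17 averaged under 1 CPM in all 4 groups, whereas DSP stood at 575 and KLF4, a factor of epithelial differentiation, at 202 CPM in LK2-ctrl. In LK-2 cells 1 of 18 tested was called, where 0.533% of all genes were, and 2 by DESeq2, 3 by the likelihood ratio test, 2 without a filter and 5 with the replicate block. The 1 gene was KRT5, a basal keratin, which averaged 0.727 ± 0.184 CPM in ctrl and 6.95 ± 1.62 in maspin libraries (SD, n = 3; log2 fold change 3.25, SE 0.23, adjusted p = 4.6e-05), a level still below that of every 14-3-3 gene. In RERF-LC-AI cells 2 of 16 were lower, where 6.53% of all genes were, EVPL (envoplakin) from 44.1 to 27.8 CPM (-0.63, SE 0.07, adjusted p = 9.6e-08) and DSP (desmoplakin) from 51.9 to 37.6 (-0.43, SE 0.07, adjusted p = 4.9e-05). Both encode plakins, which tie keratin filaments to cell junctions. Their effects differed from those in LK-2 cells by 0.52 (adjusted p = 0.0146) and 0.44 (adjusted p = 0.0308) in the interaction term of the same test. Both were picked on 1 arm of that term. Of all genes called in RERF-LC-AI cells 14.9% passed it, against 1.76% of 28123 genes tested. Among the 7 genes of the list with a mean of at least 10 CPM there, 2 were called, where 21.3% of all genes at that level were.

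The genes whose pattern over the 12 libraries was most like that of SFN, after each line was centred on its own mean, were MSRB3 (Pearson r 0.96), OXR1 (0.96), GOLM2 (0.96), AGAP3 (0.95) and KRT80 (0.95), out of 15557 genes with a mean of at least 1 CPM in both lines. MSRB3 reduces oxidised methionine, and KRT80 is an epithelial keratin. Like SFN, they were higher with maspin in LK-2 and lower in RERF-LC-AI cells, a pattern that the ranking on centred values selects for. MSRB3 differed by 0.39 (SE 0.07) and -0.28 (SE 0.05) and KRT80 by 0.56 (SE 0.20) and -0.33 (SE 0.05). KRT80 averaged 1.01 CPM in LK2-ctrl and 1.48 in LK2-maspin, near the limit of 1 CPM. It stood at 137 CPM in LC-AI-ctrl and 106 in LC-AI-maspin. By Spearman's rank correlation a different 5 led, none of which was among the 5 named. There MSRB3 and AGAP3 ranked 15, GOLM2 84, OXR1 160 and KRT80 213, so the choice of these genes rests on the correlation used. Over the same libraries the r to SFN was 0.69 for YWHAZ, 0.57 for YWHAH, 0.55 for YWHAQ, 0.51 for YWHAB, 0.42 for YWHAG and 0.16 for YWHAE, which gave YWHAZ a rank of 814 among those genes. All points share the libraries and their scaling, and the maspin contrast that chose the members shapes these correlations.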

How the data were processed

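Poly(A) RNA of 12 libraries (3 per group) was sequenced. Per the labels and methods, the authors trimmed reads with Trimmomatic 0.39, used BWA 0.7.17 for mapping to GRCh38.p13 and deposited counts of mapped reads per gene, in 1 table per line (SAMtools 1.12 for LK-2, 1.10 for RERF-LC-AI). Signal columns, which the authors scaled by library total or TMM (edgeR 3.16.5), were not analysed. No source used here names the counting tool. Of counts from 1 to 9, 23.7 to 26.0% were odd, so most counts hold both reads of a pair. Lines without a gene symbol (646, at most 0.416% of counts) were left out.

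Members and lists were chosen with earlier results of these data known. The main test of counts was edgeR's (4.0.16, R 4.3.3) quasi-likelihood F test, with TMM factors over the libraries compared. It used the default filter (minimum count 10, total 15) and Benjamini-Hochberg adjustment over all genes tested. All 7 members passed the filter in each comparison. The SE is the size of the log2 fold change over the square root of F. CPM per kb used MANE Select lengths (GENCODE 44). Likeness to SFN used log2(CPM + 0.5). Shares were compared with exact permutation tests (scipy 1.17.1). Alternatives were the likelihood ratio test the study names, DESeq2 1.42.0, other scalings and filters, a replicate block, 1 fit of 12 libraries, pseudogene counts added and leaving out each library. The fits were also run on simulated data, and the outcome is not reported here. Named genes are the members, member pseudogenes, SERPINB5 and the 5 genes most like SFN. Up to 6 called genes per list and line, those with the smallest adjusted p, were named too. BRCA1, COP1, DNMT1, DNMT3A, DNMT3B, TP63, TP73, KRT14, KRT16, KRT17, KLF4, C22orf24 and the CDC25 genes were named after their values were seen. Some items are not reported here, and the lists and their counts are without them.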

Additional observations from a re-analysis of the deposited data

Results flagged for a closer look

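For 7 of the genes named the maspin against ctrl difference was unlike in the 2 lines, for SFN as a description only. Each group is a pool of its own, so maspin and other differences between pools cannot be told apart. SFN was higher in every LK2-maspin than in every LK2-ctrl library and lower in every LC-AI-maspin than in every LC-AI-ctrl library. Its effect in LK-2 minus that in RERF-LC-AI cells was 0.799 on the log2 scale. No p is given for this difference, since SFN was chosen on the same contrasts.

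Among the other genes the difference passed the interaction term of edgeR's quasi-likelihood test. It was 1.03 for IRS1 (adjusted p = 0.00114), 0.898 for FOXO1 (adjusted p = 0.00466), 0.64 for KRT18 (adjusted p = 6.71e-05) and 0.326 for YAP1 (adjusted p = 0.0195), which are 14-3-3 clients, and 0.519 for EVPL (adjusted p = 0.0146) and 0.441 for DSP (adjusted p = 0.0308). Within LK-2 cells these 6 genes were not called. All 6 were picked for a call in RERF-LC-AI cells, which is 1 arm of that term. Of all genes called there 14.9% passed the term, against 1.76% of 28123 genes tested. The level of maspin itself, at 46.7 CPM in LK2-maspin and 504 CPM in LC-AI-maspin, differs with the line, and its part in these differences was not tested.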

How the results depend on the processing

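SFN kept its direction in both lines under all alternatives run, between 0.41 and 0.51 in LK-2 and between -0.38 and -0.31 in RERF-LC-AI cells. Genes called in LK-2 cells numbered 140, 280 with DESeq2, 314 with the likelihood ratio test and 251 in 1 fit of 12 libraries. Leaving out 1 library gave 50 to 199 (50 without replicate 2 of LK2-ctrl, 52 and 82 without replicates 2 and 3 of LK2-maspin). In RERF-LC-AI cells 2655 were called, 1163 in 1 fit of 12 libraries and 1764 to 2594 without 1 library (1764 without LC-AI-maspin replicate 3). The clients called there fell to 9 in the fit of 12 libraries, and numbered 10 to 15 without 1 library. Between the lines YWHAZ lost its call under library size only (-0.0032), upper-quartile factors (-0.0067) and in the maspin libraries (-0.0057). In RERF-LC-AI cells library size only gave 1408 higher and 1287 lower genes, and upper-quartile factors 1305 and 1388, against 1010 and 1645. Of the 18 list genes named there 7 lost the call under at least 1 alternative, and all 18 kept direction. The cause was not tested.

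Between ctrl and maspin libraries of one number, deviations from group means correlated at 0.154, 0.0144 and 0.164 in LK-2 and at 0.0437, 0.0533 and 0.00167 in RERF-LC-AI cells over all genes tested, the measure chosen for this check, by which the numbers were not taken to pair the libraries. Over genes with a mean log2 CPM over 3 the same correlations were 0.744, 0.113 and 0.75 in LK-2 and 0.369, 0.39 and 0.203 in RERF-LC-AI cells, all above 0.1, although replicate 2 of LK2-ctrl lay closer to replicate 1 of LK2-maspin (0.18). No source used here says whether a number marks a shared day or culture. With the replicate number as a block 1190 and 4081 genes were called, with 3 and 22 of 48 clients, while SFN was 0.46 and -0.34.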
